A study of Mus musculus with 6 samples.

Results

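The Gimap genes encode GTPases of the immunity-associated nucleotide-binding protein family, and 8 of them (Gimap1, Gimap3, Gimap4, Gimap5, Gimap6, Gimap7, Gimap8 and Gimap9) were taken by symbol from the deposited matrix of 56980 mouse genes. The values come from 6 lung libraries of NSG mice that received tumour cells in the mammary fat pad and were killed after 5 weeks. In the Ctrl group (3 libraries) the cells were MDA-MB-231, a human breast cancer line, and in the DPP3_KO group (3 libraries) they were MDA-MB-231/DPP3 KO cells, which lack dipeptidyl peptidase 3. The knockout is in the human cells, so the mouse Dpp3 gene does not check the labels. Both groups therefore carried a tumour and the NSG background, and no lung without a tumour is among the libraries. The labels do not say whether the knockout line is 1 clone, whether each library is 1 mouse, or how old the mice were, so p-values measure the spread between these libraries, which may be technical. The 8 genes were picked as a group with their difference between DPP3_KO and Ctrl already known. That difference is therefore given as a description, with no p-value. Where members called by the fit across all genes are counted, the count stands beside that of all genes and supports nothing. The order of the members by level was tested. So were the genes outside the family, apart from the overlapping gene model Gm28053.

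Gimap proteins carry a guanine nucleotide-binding domain and sit on intracellular membranes such as those of lysosomes, the endoplasmic reticulum and mitochondria, often through a hydrophobic tail. They are best known from T and B lymphocytes, whose survival depends on several of them, and transcripts of several members are also found in vascular endothelial cells. The NSG strain has no mature T cells, B cells or natural killer cells of its own.

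In mouse the 8 genes form an uninterrupted run of protein-coding genes on chromosome 6 in the RefSeq gene order of GRCm38.p6, between Zfp775 on one side and Tmem176b on the other. The order is Gimap8, Gimap9, Gimap4, Gimap6, Gimap7, Gimap1, Gimap5 and Gimap3, and 6 genes lie on the plus strand, with Gimap6 and Gimap3 on the minus strand. Most of the coding sequences have diverged. Among the 28 pairs of longest coding sequences in GENCODE M21, Gimap3 and Gimap5 were 90.4% identical over their aligned bases, and the next pair, Gimap7 and Gimap9, was 66.6% identical. The lowest identity, 55.7%, was that of Gimap1 and Gimap9. Gimap8 stood apart by size, with 688 codons against 291 to 328 in the others.

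The 250 bases before the annotated start of Gimap6, Gimap4 and Gimap5 are shown because the first 2 are the most abundant members and Gimap5 differed least among those tested. RefSeq windows were found for all 8 members, 9 windows in total since Gimap8 has a pair of starts. Capitals mark GGAAGT, the core bound by ETS factors, and TGTGGT, the core bound by RUNX factors, on either strand (ACTTCC and ACCACA when read from the other strand).
Gimap6 (GRCm38.p6, chr6:48708245-48708494, minus strand): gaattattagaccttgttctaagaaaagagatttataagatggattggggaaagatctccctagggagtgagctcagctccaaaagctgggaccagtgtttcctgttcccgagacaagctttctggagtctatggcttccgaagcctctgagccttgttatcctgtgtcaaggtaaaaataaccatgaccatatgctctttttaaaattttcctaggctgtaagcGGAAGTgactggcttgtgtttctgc
Gimap4 (GRCm38.p6, chr6:48684328-48684577, plus strand): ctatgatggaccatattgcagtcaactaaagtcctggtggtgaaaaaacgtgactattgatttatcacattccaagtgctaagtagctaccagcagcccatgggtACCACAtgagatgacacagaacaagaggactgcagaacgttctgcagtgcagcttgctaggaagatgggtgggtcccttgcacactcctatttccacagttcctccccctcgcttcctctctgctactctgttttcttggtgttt
Gimap5 (GRCm38.p6, chr6:48745947-48746196, plus strand): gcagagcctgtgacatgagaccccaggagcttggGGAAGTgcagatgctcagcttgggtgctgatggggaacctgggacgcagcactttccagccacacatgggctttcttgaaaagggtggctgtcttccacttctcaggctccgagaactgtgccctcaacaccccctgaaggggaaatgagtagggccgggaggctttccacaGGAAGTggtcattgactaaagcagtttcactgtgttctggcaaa
The Gimap6 window holds 1 GGAAGT match, whose first base lies 25 bases before the start, and the Gimap5 window holds GGAAGT matches at 216 and 44 bases. The Gimap4 window holds 1 match of the RUNX core, at 145 bases. Over the whole family GGAAGT was present in the windows of 2 members, against 19.7% of 32851 windows of this length in the RefSeq table. TGTGGT was present for 3 members (Gimap1, Gimap4 and Gimap7), against 14.0% of windows. AGATAA, a core bound by GATA factors (TTATCT on the other strand), was found in none of the 9 windows and in 9.99% of all windows. The motifs do not overlap one another in the windows shown, and a match is a description of letters only.

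In the files the depth behind each value is unknown, because TPM (transcript abundance scaled to gene length and to a fixed library total) sums to the same total in every library. The number of genes above 0 ranged from 22904 to 24477 per library. The airway gene Scgb1a1, the main secretory product of club cells, took 7.16% to 10.1% of all TPM in Ctrl and 21.7% to 28.7% in DPP3_KO, which lowers the TPM of every other gene in DPP3_KO. The summed level of 10 neutrophil genes also varied within groups, from 4255 to 53073 TPM in Ctrl and from 1696 to 35095 TPM in DPP3_KO. Changes are therefore also given on values divided by a median-of-ratios factor, called scaled here, which relates a gene to the typical gene of its library. The median change over the 15650 genes tested was -0.60 for the deposited values and -0.02 for the scaled ones, on the log2(TPM + 1) scale used throughout, which understates changes of low genes. With TPM rescaled without Scgb1a1 the median over all genes was -0.33, so removing that gene took away only part of the shift. The source of the rest was not tested.

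The summed level of the family was lower in the lungs of mice with DPP3_KO tumours, and Gimap6 and Gimap4 made up most of that sum. Summed over the 8 members, the level was 292, 294 and 252 TPM in the 3 Ctrl libraries and 107, 118 and 101 TPM in DPP3_KO. The means were 280 ± 23.9 TPM (SD, n = 3) in Ctrl and 109 ± 8.69 (n = 3) in DPP3_KO, a 2.58-fold difference. After scaling the difference of the summed level was 1.63-fold, and every DPP3_KO library still lay below every Ctrl library. Such a separation held for 51.1% of all genes tested as deposited and for 15.2% after scaling. Taken alone, Gimap1, Gimap5 and Gimap9 overlapped between the groups after scaling. In bulk tissue, fewer cells of a type and less RNA per cell cannot be told apart. Of the 8 members, 6 reached a mean of 1 TPM and entered the fit across all genes, and Gimap3 and Gimap7 did not.

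**Figure D1:**
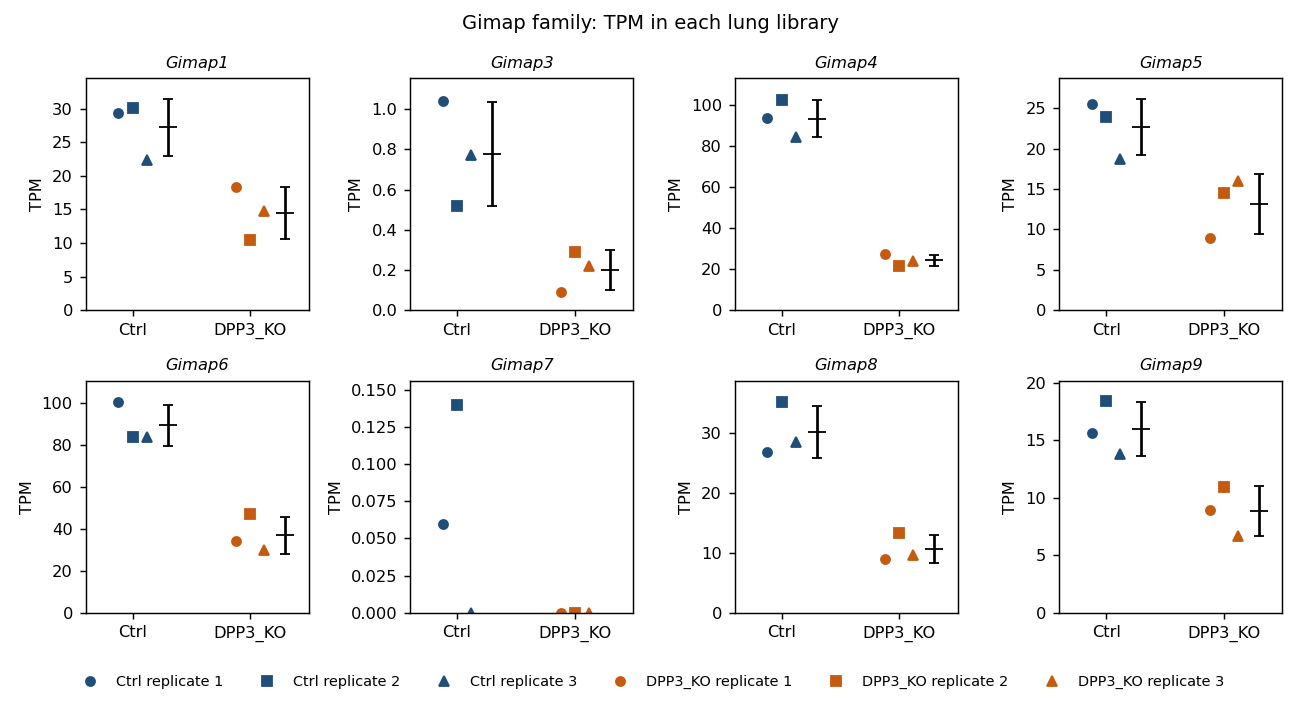
TPM (vertical axes, each starting at 0) of the 8 Gimap genes in the 3 Ctrl and 3 DPP3_KO lung libraries; symbols mark the replicate number, and black bars give the mean ± SD, left out for Gimap7. Every DPP3_KO value lies below every Ctrl value in each panel except that of Gimap7, where Ctrl replicate 3 and the DPP3_KO libraries are listed at 0.

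Gimap6 and Gimap4 carried most of the signal. Gimap6 (ENSMUSG00000047867), which binds the autophagy protein GABARAPL2, stood at 101, 83.9 and 83.7 TPM in Ctrl and at 34.4, 46.9 and 29.9 TPM in DPP3_KO. Gimap4 (ENSMUSG00000054435), a regulator of T cell death, stood at 93.4, 102 and 84.1 TPM in Ctrl and at 27.1, 21.6 and 23.8 TPM in DPP3_KO. The 2 genes were at like levels in Ctrl, and Gimap4 was the lower of them in all 3 DPP3_KO libraries. Both groups of Gimap4 values were tight, and its lowest Ctrl value was 3.10 times its highest DPP3_KO value, the widest such gap among the 6 tested members. The difference of means was 3.86-fold for Gimap4 and 2.41-fold for Gimap6.

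Gimap8, the long member with repeated GTPase domains, followed the same pattern at a lower level. It stood at 26.9, 35.1 and 28.5 TPM in Ctrl and at 8.99, 13.2 and 9.56 TPM in DPP3_KO, with no overlap and a 2.85-fold difference of means. Gimap1, Gimap5 and Gimap9 were separated by much less. Gimap1 (ENSMUSG00000090019), needed for mature T and B cells, stood at 29.4, 30.0 and 22.3 TPM in Ctrl and at 18.3, 10.5 and 14.7 TPM in DPP3_KO. Gimap5 (ENSMUSG00000043505), a lysosomal member whose loss shortens lymphocyte life, stood at 25.5, 23.9 and 18.8 TPM in Ctrl and at 8.94, 14.4 and 16.0 TPM in DPP3_KO. The lowest Ctrl value exceeded the highest DPP3_KO value by only 1.22 times for Gimap1 and 1.17 times for Gimap5, and the 2 neighbouring genes were ordered differently within DPP3_KO: replicate 1 was the highest library for Gimap1 and the lowest for Gimap5. Gimap9 stood at 15.7, 18.4 and 13.8 TPM in Ctrl and at 8.98, 10.9 and 6.65 TPM in DPP3_KO, a 1.80-fold difference of means.

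The remaining pair was barely present. Gimap3 (ENSMUSG00000039264), which influences the segregation of mitochondrial DNA variants in mouse tissues, was listed at 1.04, 0.52 and 0.77 TPM in Ctrl and at 0.09, 0.29 and 0.22 TPM in DPP3_KO. These values do not overlap, but all lie at or near 1 TPM or less, where TPM gives no measure of the reads behind them. Gimap7 (ENSMUSG00000043931), whose protein stimulates GTP hydrolysis in its dimer partners, was listed at 0.06 and 0.14 TPM in 2 Ctrl libraries and at 0 in the third and in all 3 DPP3_KO libraries.

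On the log2 scale the tested members spread over a range from near the typical gene to far below it. The change was -1.91 ± 0.17 (SE) for Gimap4, -1.44 ± 0.21 for Gimap8 and -1.27 ± 0.21 for Gimap6. It was -0.89 ± 0.24 for Gimap1, -0.80 ± 0.23 for Gimap9 and -0.77 ± 0.25 for Gimap5, close to the median of all genes at -0.60. Counted from the most negative change, Gimap4 lay at percentile 1.90 of the 15650 genes, Gimap8 at 5.85 and Gimap6 at 8.96, whereas Gimap1, Gimap9 and Gimap5 lay at 26.2, 32.9 and 35.0. The median over the 6 members was -1.08. All 6 passed the limma fit (adjusted p under 0.05) in the direction of lower, where 34.0% of all genes tested did, and all 6 had groups that did not overlap, as did 51.1% of all genes in that direction. Nothing is read from either count, because the members were chosen on this difference. Without Ctrl replicate 2 the count of members was 1, in a fit that called 85 genes lower in place of 5321. Without Ctrl replicate 1 and without DPP3_KO replicate 3, it was 3, in fits that called 1037 and 1726 genes lower, and without DPP3_KO replicate 1 the fit called 3238.

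On the scaled values the members spread from far below the typical gene, at -0.02, to near it. Gimap4 stood at -1.26 ± 0.18 (SE), Gimap8 at -0.81 ± 0.17 and Gimap6 at -0.62 ± 0.17, while Gimap1, Gimap9 and Gimap5 stood at -0.25 ± 0.26, -0.19 ± 0.16 and -0.15 ± 0.26. After scaling the Gimap4 values were 74.5, 76.0 and 71.1 in Ctrl and 33.6, 24.3 and 34.1 in DPP3_KO, still far apart. The scaled Gimap5 values were 20.3, 17.8 and 15.9 in Ctrl and 11.1, 16.2 and 22.9 in DPP3_KO, so that DPP3_KO replicate 3 was the highest of all 6 libraries. Groups did not overlap for Gimap4, Gimap6 and Gimap8 after scaling, against 15.2% of all genes in that direction, and 1 member, Gimap4, was called lower, as were 0.888% of all genes. Here too nothing is read from the counts, since the rule used this difference, and the count of 1 became 0 when any library other than DPP3_KO replicate 1 was left out. The sign of the scaled change turned for Gimap1 without DPP3_KO replicate 2 (0.032) and for Gimap5 without DPP3_KO replicate 1 (0.11).

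**Figure D2:**
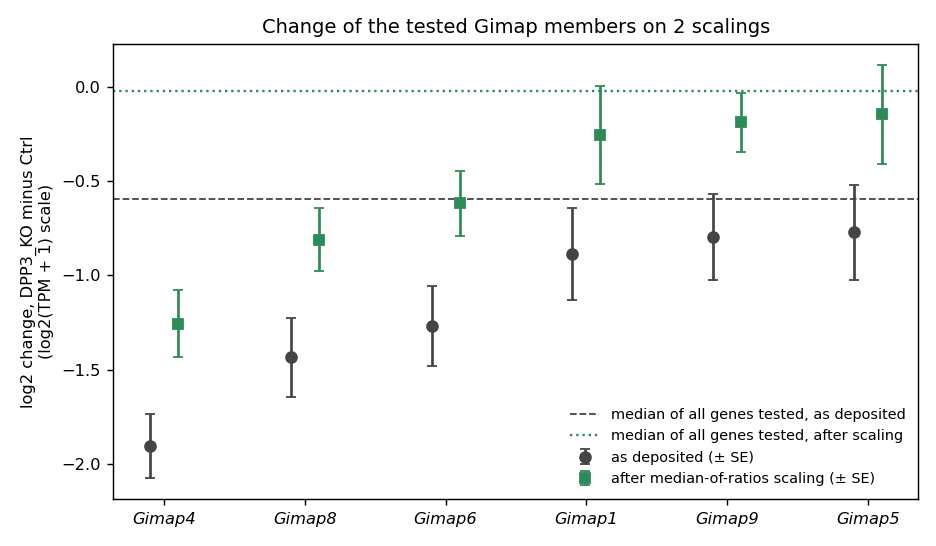
Log2 change, DPP3_KO minus Ctrl, of the 6 tested Gimap members as deposited (circles) and after scaling (squares), with SE bars; lines give the median of all genes tested on each scaling. All 6 lie below the median on each scaling, Gimap4, Gimap8 and Gimap6 furthest, and after scaling Gimap1, Gimap9 and Gimap5 lie between -0.25 and -0.15.

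Ratios taken within a library do not depend on scaling. They are a description only, since the members were chosen on this difference and no such ratios were counted over other gene pairs. Some ratios between members lay apart between the groups, and others, such as Gimap6 to Gimap8, overlapped. Gimap4 made up 31.9%, 34.7% and 33.4% of the summed Gimap TPM in Ctrl and 25.4%, 18.3% and 23.6% in DPP3_KO. No DPP3_KO library reached the lowest Ctrl share. The share of Gimap6 was alike in both groups, at 32.0% ± 3.12 (SD, n = 3) in Ctrl and 33.9% ± 5.26 in DPP3_KO. The share of Gimap9 was larger in DPP3_KO, at 8.10% ± 1.37 against 5.70% ± 0.494, with no overlap between the groups. The ratio of Gimap4 to Gimap9 was 5.95, 5.54 and 6.10 in Ctrl and 3.02, 1.98 and 3.58 in DPP3_KO, and that of Gimap4 to Gimap6 was 1.05 ± 0.151 in Ctrl and 0.682 ± 0.191 in DPP3_KO. The ratio of Gimap1 to Gimap5 was 1.15 to 1.26 in Ctrl and 0.725 to 2.05 in DPP3_KO, so that this pair of neighbours varied widely among the DPP3_KO libraries.

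**Figure D3:**
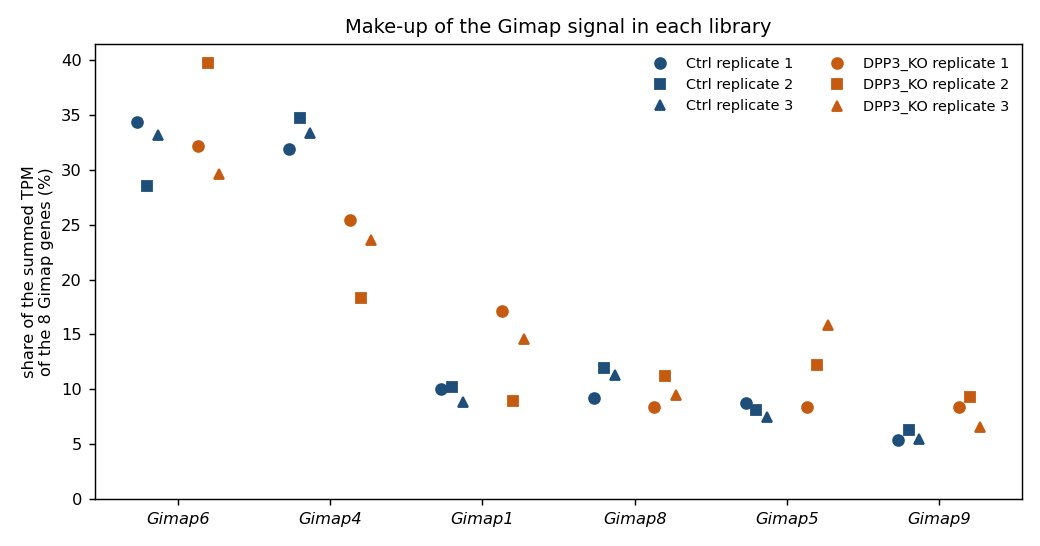
Share of the summed TPM of the 8 Gimap genes (vertical axis, percent, starting at 0) taken by the 6 higher members in each library, in order of level. The 3 DPP3_KO shares of Gimap4, from 18.3% to 25.4%, all lie below the Ctrl shares, from 31.9% to 34.7%, while those of Gimap6 overlap.

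By mean log2 level over the 6 libraries the order was Gimap6, Gimap4, Gimap1, Gimap8, Gimap5, Gimap9, Gimap3 and Gimap7, and since TPM is per length these levels can be set side by side. Large steps separated Gimap4 from Gimap1 (mean difference 1.24 ± 0.580 SD on the log2 scale) and Gimap9 from Gimap3 (3.14 ± 0.333), each in 6 of 6 libraries. Gimap3 exceeded Gimap7 by 0.49 ± 0.320 in 6 of 6. Each of these 3 steps gave p = 0.0312 in a two-sided exact sign-flip permutation test paired by library, the smallest p that 6 libraries allow. The adjusted p was 0.0729 over the 7 neighbouring pairs, so 0 of 7 passed the threshold. With that floor a step could pass only if most of the 7 pairs reached it, so the 0 says nothing about any single step. Gimap6 exceeded Gimap4 in 4 of 6 libraries (exact permutation p = 0.188, adjusted p = 0.262). Gimap1, Gimap8 and Gimap5 were within their spread of each other, with mean differences of 0.13 ± 0.530 (exact permutation p = 0.562, adjusted p = 0.656) and 0.07 ± 0.467 (exact permutation p = 0.906, adjusted p = 0.906). Gimap5 exceeded Gimap9 in 5 of 6 libraries (exact permutation p = 0.0625, adjusted p = 0.109). In the Ctrl libraries alone Gimap4 came before Gimap6 and Gimap8 before Gimap1.

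A further gene model at the same locus bears on the values of Gimap1 and Gimap5. Gm28053 (ENSMUSG00000098715), chosen after its values were seen, overlaps Gimap7, Gimap1 and Gimap5 on the same strand in GENCODE M21, and it has a length of 350 bases in the deposited matrix. It stood at 35.9, 33.9 and 20.1 TPM in Ctrl and at 9.71, 2.41 and 6.18 TPM in DPP3_KO, a 4.91-fold difference of means. The log2 change was -2.23 ± 0.43 SE as deposited and -1.62 after scaling. Because of that choice it is a description, with no p-value. The difference of Gm28053 was larger than that of Gimap1 or Gimap5. Of the stretches of 50 bases in the M21 transcripts of Gimap1, 149 also occur in Gm28053, as do 105 of those of Gimap5, so the split of reads among the 3 models is uncertain. When the 3 were combined by TPM times length, the levels were 28.0, 27.2 and 20.3 TPM in Ctrl and 12.7, 11.8 and 14.6 TPM in DPP3_KO. The combined log2 change was -0.89 as deposited and -0.26 after scaling, near the values of Gimap1 alone. The SD among DPP3_KO libraries was 1.43 TPM for the 3 combined, 3.91 for Gimap1 and 3.71 for Gimap5, whereas in Ctrl it was 4.23, 4.26 and 3.50.

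**Figure D4:**
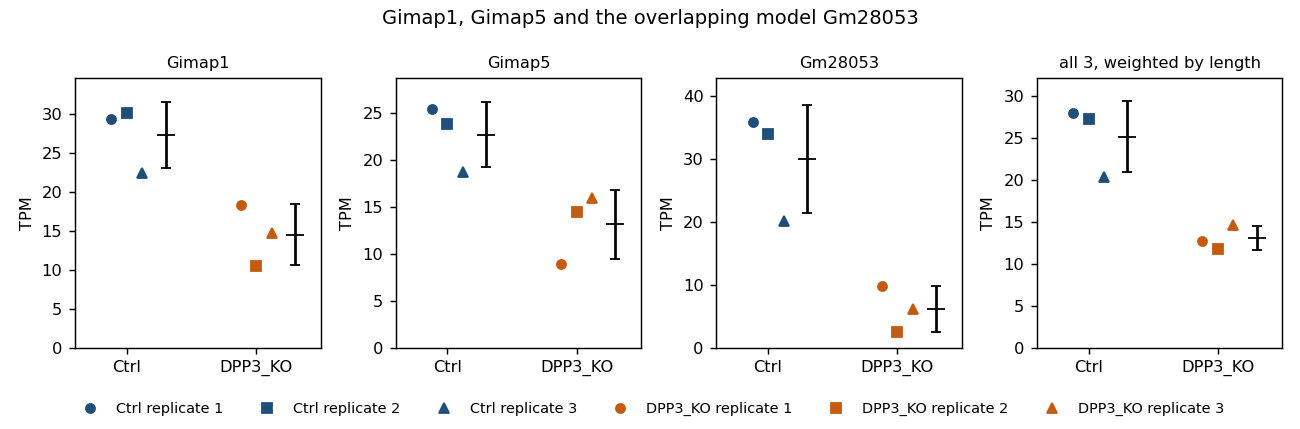
TPM (vertical axes, each starting at 0) of Gimap1, Gimap5, the overlapping gene model Gm28053 and the 3 combined with weights by length, in each library; black bars give the mean ± SD. The 3 combined DPP3_KO values, from 11.8 to 14.6 TPM, lie closer together than those of Gimap1 or Gimap5 alone, which is not so in Ctrl, and all lie below the lowest Ctrl value of 20.3 TPM.

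Gimap1 and Gimap5 also share sequence with other genes. Of the 50-base stretches of Gimap5, 190 also occur in Gimap3, its close copy, and with that pair combined the log2 change was -0.75. The antisense gene Gimap1os shares 1011 of the 3116 stretches of Gimap1, and the strand setting of the counting is not given in the sources used here, so reads of the 2 cannot be told apart. Gimap1os itself was listed at 0.42, 0.54 and 0.67 TPM in Ctrl and at 0.27, 0.09 and 0.16 TPM in DPP3_KO. Gimap4, Gimap8 and Gimap9 shared 0 stretches with any other gene, and Gimap6 shared 0.17% of its stretches.

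Most genes on either side of the cluster did not pass. Of 8 neighbours tested, 1 was lower, 1 was higher and 6 fell short of the threshold, where 34.0% of all genes were lower and 1.38% higher. Their median log2 change was -0.33 in deposited and 0.22 in scaled values. On the latter 0 passed in limma, where 0.888% of all genes were lower and 1.94% higher. An unadjusted limma p under 0.05 was seen for 2, both higher, a count not made over all genes. Tmem176b and Tmem176a, membrane protein genes of myeloid and dendritic cells that lie next to Gimap3, stood at log2 changes of 0.07 (limma adjusted p = 0.757) and -0.32 (limma adjusted p = 0.208). Tmem176b was at 693, 603 and 653 TPM in Ctrl and at 587, 711 and 761 TPM in DPP3_KO, with full overlap of the groups. On the far side Zfp775 and Repin1, both zinc finger genes, did not pass, at -0.34 (limma adjusted p = 0.271) and -0.53 (limma adjusted p = 0.122). The 2 that passed were Atp6v0e2, a proton pump subunit gene, at -0.66 (limma adjusted p = 0.0485), and the amine oxidase gene Aoc1, at 0.90 (limma adjusted p = 0.0452), which stayed between 0.63 and 3.23 TPM; without Ctrl replicate 1, Ctrl replicate 2, DPP3_KO replicate 1 or DPP3_KO replicate 3, neither passed. Without Ctrl replicate 3 the counts were 1 lower and 0 higher, and without DPP3_KO replicate 2 they were 0 lower and 1 higher.

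Lymphocyte genes were scarce in these lungs, while Gimap6 and Gimap4 stood near 90 TPM in Ctrl. Of 21 T cell genes 14 had a mean under 1 TPM, Cd8b1 was listed at 0 in all 6 libraries, and Cd3e, part of the T cell receptor complex, was listed at 0.03 TPM in Ctrl replicate 3 and at 0 in the other 5. The receptor constant genes Trac, Trbc1 and Trbc2 reached at most 0.07, 0.26 and 0.14 TPM. The summed T cell list was 22.4 to 43.7 TPM in Ctrl and 10.9 to 16.7 TPM in DPP3_KO. Cd2, an adhesion receptor of T and natural killer cells, made up much of it, at 23.7, 12.8 and 5.93 TPM in Ctrl and at 0.47, 0 and 1.03 TPM in DPP3_KO (log2 change -3.21, limma adjusted p = 0.0145). Tcf7 stood at 7.84, 10.9 and 3.93 TPM in Ctrl and at 4.88, 2.61 and 3.98 TPM in DPP3_KO (-0.76, limma adjusted p = 0.128). Zap70 reached 5.72 TPM, in DPP3_KO replicate 1, and its change was upward (0.09, limma adjusted p = 0.882). Of the 7 T cell genes tested 2 were lower, a share near the 34.0% of all genes: Cd2 and the receptor signalling chain gene Cd247. After scaling Cd2 kept its call (-2.78, limma adjusted p = 0.0452) and Cd247 did not (-0.82, limma adjusted p = 0.228). As deposited, 1 passed without Ctrl replicate 1, DPP3_KO replicate 1 or DPP3_KO replicate 3, and 0 without Ctrl replicate 2. Over all genes those fits called 1037, 3238, 1726 and 85 lower.

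B cell and natural killer cell genes were also low. Cd79a, a signalling chain of the B cell receptor, reached at most 0.2 TPM, while its partner Cd79b reached 6.95 TPM. Ighm, the immunoglobulin heavy chain gene of IgM and the most abundant of the list, stood at 14.9, 12.8 and 5.81 TPM in Ctrl and at 4.03, 2.88 and 6.61 TPM in DPP3_KO. The 10 B cell genes summed to 12.8 to 33.2 TPM in Ctrl and 7.51 to 12.1 TPM in DPP3_KO, and 1 of 3 tested was lower, Cd22 (log2 change -2.00, limma adjusted p = 0.0242), a share near that of all genes. After scaling Cd22 did not pass (-1.67, limma adjusted p = 0.107). The B cell count was 0 without Ctrl replicate 1, Ctrl replicate 2, DPP3_KO replicate 1 or DPP3_KO replicate 3, and 2 without Ctrl replicate 3. Over all genes those fits called 1037, 85, 3238, 1726 and 4457 lower. Ncr1, the defining natural killer receptor, was at or below 0.76 TPM, and the 13 natural killer and innate lymphoid genes summed to 12.2 to 18.3 TPM in Ctrl and 8.17 to 12.7 TPM in DPP3_KO. Most of that sum came from Rora, at 6.93, 9.87 and 7.63 TPM in Ctrl and 9.74, 4.88 and 5.94 TPM in DPP3_KO, and from Gata3. The latter stood at 1.91, 3.68 and 2.29 TPM in Ctrl and at 1.80, 1.78 and 0.87 TPM in DPP3_KO. In the natural killer and innate lymphoid list 0 of 2 tested genes passed in limma, and 0 had an unadjusted p under 0.05. The T and B cell sums were thus lower in DPP3_KO together with the Gimap genes in deposited values, without overlap. Scaled, they overlapped, at 18.9 to 34.8 in Ctrl and 12.2 to 20.7 in DPP3_KO for T cells, and at 10.9 to 26.5 and 8.44 to 17.3 for B cells. Their part in the Gimap difference was not tested. Il2rg and Prkdc, the genes mutated in NSG mice, did not pass, at log2 changes of -0.69 (limma adjusted p = 0.193) and -0.37 (limma adjusted p = 0.281).

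Endothelial genes were abundant and were lower alongside the Gimap genes. Of 24 capillary endothelial genes 19 were lower, 0 higher and 5 did not pass, where 34.0% of all genes were lower, at a median of -1.66 on the log2 scale. Scaled values left 4 lower, where 0.888% of all genes were, at a median of -1.005. Without Ctrl replicate 1, Ctrl replicate 2 or DPP3_KO replicate 3, the 19 became 11, 2 and 12. Over all genes those fits called 1037, 85 and 1726 lower, in place of 5321. Their summed level was 5475 to 6592 TPM in Ctrl and 1899 to 3178 TPM in DPP3_KO. Cdh5, the endothelial junction cadherin, stood at 326, 379 and 254 TPM in Ctrl and at 77.3, 38.1 and 50.7 TPM in DPP3_KO (log2 change -2.55, limma adjusted p = 0.0144), and passed after scaling (-1.89, limma adjusted p = 0.0331). Pecam1, the platelet-endothelial adhesion gene, stood at 439, 491 and 542 TPM and at 174, 112 and 157 TPM (log2 change -1.75, limma adjusted p = 0.0145), and did not pass after scaling (-1.08, limma adjusted p = 0.0858). Not all endothelial genes moved so far: the 3 with the highest mean over the 6 libraries, a ranking that favours genes kept in DPP3_KO, were Egfl7, Ramp2 and Cldn5, and they were at -0.42, -0.53 and -0.43 and did not pass (limma adjusted p = 0.250, 0.119 and 0.297). Next in that ranking came Hpgd, which was lower (-1.43, limma adjusted p = 0.0186) and did not pass after scaling (-0.77, limma adjusted p = 0.227). Of 12 large-vessel and lymphatic endothelial genes tested 4 were lower (0 without Ctrl replicate 2), a share near the 34.0% of all genes, with a median of -0.81. After scaling 1 was lower, where 0.888% of all genes were, and the median was -0.21. The part of the endothelial difference in that of the Gimap genes was not tested.

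Within a library, the level of a member relative to endothelial genes depended on the endothelial gene chosen. Over the 24 capillary genes, the ratio of Gimap4 was lower in DPP3_KO without overlap for 9, higher for 1, Cdh5, and overlapping for 14. The ratio of Gimap6 overlapped for 22 and that of Gimap5 for 21, while that of Gimap1 was higher for 13 and lower for 1. Such counts were not made for genes outside the family, and the members were chosen on this difference, so nothing is read from them. Against Cdh5, which differed more than most of the list, every tested member was relatively higher in DPP3_KO. The ratio of Gimap4 to Cdh5 was 0.287, 0.270 and 0.331 in Ctrl and 0.351, 0.567 and 0.470 in DPP3_KO. For Gimap1 it was 0.0858 ± 0.00575 (SD, n = 3) in Ctrl and 0.267 ± 0.0275 in DPP3_KO, and for Gimap5 it was 0.0717 ± 0.00782 and 0.270 ± 0.137. Against Ramp2, the ratio of Gimap4 was 0.131, 0.143 and 0.124 in Ctrl and 0.0462, 0.0641 and 0.0413 in DPP3_KO. The ratio of Gimap4 to Pecam1 was 0.192 ± 0.0320 in Ctrl and 0.167 ± 0.0234 in DPP3_KO, with overlapping values. That of Gimap6 to Pecam1 also overlapped, at 0.185 ± 0.0393 and 0.269 ± 0.131, with DPP3_KO replicate 2 at 0.421.

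**Figure D5:**
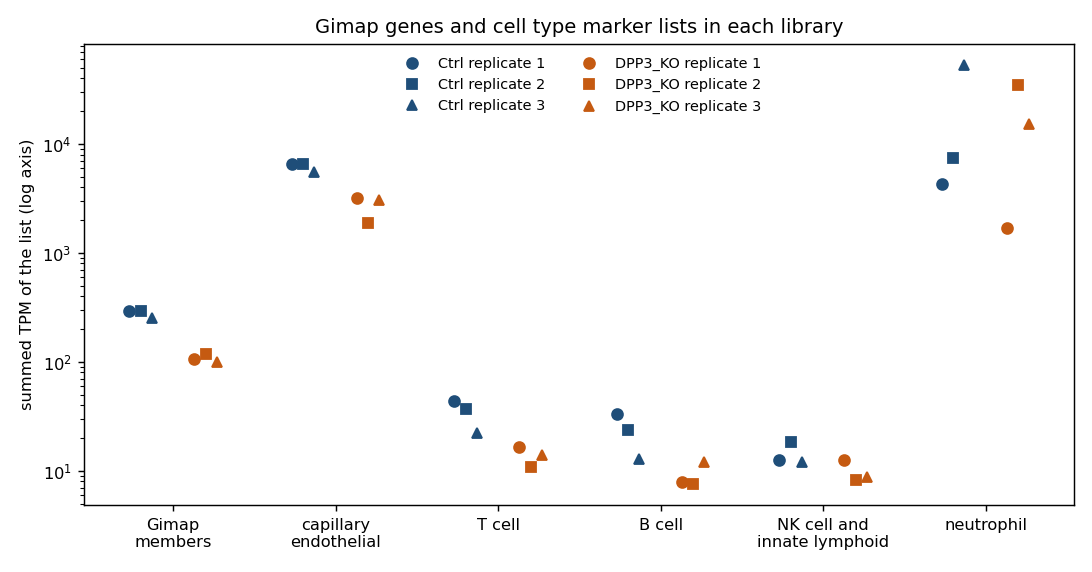
Summed TPM (vertical log axis) of the 8 Gimap genes and of marker lists for 5 cell types in each library. The Gimap sum lies between those of the capillary endothelial and the lymphocyte lists. The Gimap, capillary endothelial, T cell and B cell sums show no overlap between groups. The natural killer and innate lymphoid sum overlaps, as does the neutrophil sum, which ranges from 1696 to 53073 TPM across libraries of both groups.

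Other cell types of the lung also differed between the groups in these libraries. Of 14 alveolar macrophage genes 10 were lower (median log2 change -2.54), as were 11 of 12 alveolar type 1 genes (-2.12) and 4 of 10 monocyte genes (-1.27), where 34.0% of all genes were. After scaling the counts were 7, 3 and 0, where 0.888% of all genes were lower, with medians of -2.02, -1.47 and -0.63. As deposited, without Ctrl replicate 2 the counts were 5, 1 and 0, and the alveolar type 1 count was 6 without Ctrl replicate 1. The monocyte count was 2 without Ctrl replicate 1, DPP3_KO replicate 1 or DPP3_KO replicate 3. Over all genes those 3 fits called 1037, 3238 and 1726 lower, and the fit without Ctrl replicate 2 called 85, in place of 5321. Of 9 club and ciliated airway genes 8 were higher, where 1.38% of all genes were, and 6 after scaling, where 1.94% of all genes were. The 8 became 5 without Ctrl replicate 1 and 1 without Ctrl replicate 2, in fits that called 64 and 6 genes higher. None of the 10 neutrophil genes passed in limma, and 0 had an unadjusted p under 0.05; 1 was lower without DPP3_KO replicate 2. Ctrl replicate 3, with 53073 TPM of neutrophil genes, held 252 TPM of Gimap genes, and DPP3_KO replicate 2, with 35095 TPM, held 118 TPM.

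Gimap proteins bind members of the BCL2 and ATG8 families, and few genes of such partners passed. Of 14 genes 2 were lower and 12 fell short of the threshold, where 34.0% of all genes were lower. Their median log2 change was -0.47 in deposited values, beside -0.60 for all genes, and 0.19 in scaled values. On the latter 0 passed in limma, where 0.888% of all genes were lower and 1.94% higher. An unadjusted limma p under 0.05 was seen for 2, both higher, a count not made over all genes. The 2 lower in deposited values were Gsk3b, the kinase held in check by Gimap5 in T cells (log2 change -1.09, limma adjusted p = 0.0267), and the death inducer Bcl2l11 (-0.85, limma adjusted p = 0.0457). Without Ctrl replicate 1, 2 or 3 or without DPP3_KO replicate 3, 0 passed, in fits that called 1037, 85, 4457 and 1726 genes lower. Without DPP3_KO replicate 1 and without DPP3_KO replicate 2 the counts were 1 and 3, beside 3238 and 5049 genes. Gabarapl2, the ATG8 partner of Gimap6, stood at 108, 87.7 and 82.1 TPM in Ctrl and at 61.5, 65.7 and 70.1 TPM in DPP3_KO, and did not pass (-0.48, limma adjusted p = 0.0650). Bcl2 and Bcl2l1, survival genes, did not pass either, at -0.49 (limma adjusted p = 0.111) and -0.45 (limma adjusted p = 0.0607).

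Another set of immune GTPases, the interferon-induced guanylate-binding, immunity-related and Mx proteins, was also counted. Of 17 such genes 11 were lower and 6 fell short in deposited values, where 34.0% of all genes were lower, and the median of the 17 was -1.29 on the log2 scale. Scaled values put it at -0.76, and 0 passed in limma, where 0.888% of all genes were lower. Of the 17, 8 had an unadjusted limma p under 0.05 and a negative change. That count was not made over all genes, so nothing is read from it. Gbp2, the most abundant, stood at 66.3, 70.6 and 36.6 TPM in Ctrl and at 23.2, 42.3 and 20.6 TPM in DPP3_KO and did not pass (-1.001, limma adjusted p = 0.0593). Irgm1 was lower (-1.01, limma adjusted p = 0.0401), as was Ifi47 (-1.29, limma adjusted p = 0.0204). Without Ctrl replicate 1, and likewise without Ctrl replicate 2, 0 of the 17 passed in limma, 7 passed without DPP3_KO replicate 1 and 4 without DPP3_KO replicate 3. Over all genes those fits called 1037, 85, 3238 and 1726 lower.

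The genes outside the family whose profile over the 6 libraries came closest to the family mean were then listed. That mean was taken over all 8 members. It includes Gimap3 and Gimap7, whose log2 changes without a filter were only -0.56 and -0.09, so its difference between groups is smaller than that of the tested members. The measure was the root mean square difference between centred log2 values, in which each gene has its own mean removed, ranked over 13510 named genes outside the family. Its median was 0.351, and the 10 nearest genes lay between 0.0376 and 0.0611. They were Ppfia1, a synaptic scaffold gene, Inafm1, Vamp3, a SNARE of recycling endosomes, Zc3h18, Ss18l1, Farsb, which encodes a subunit of phenylalanine tRNA synthetase, Scaf1, the kinase gene Cdc42bpb, the RNA helicase gene Ddx55 and the sorting nexin gene Snx14. Vamp3 stood at 96.6, 99.97 and 87.8 TPM in Ctrl and at 49.3, 53.9 and 46.4 TPM in DPP3_KO. By the same measure the tested members lay from 0.186 (Gimap9, which ranked 1471 among the 15650 tested genes) to 0.489 (Gimap4, which ranked 10804) from the family mean.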

How the data were processed

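Lung RNA of 6 samples was sequenced from TruSeq libraries, per the labels' protocols. The authors deposited 1 matrix of TPM with gene lengths, and the submitters' processing notes list HISAT2, StringTie, RSEM and GRCm39, with no version or role. Groups and replicate numbers came from the titles, and the third Ctrl title carries 232 where the column name carries 231, read as a slip. For the annotation release, the strand of counting and the handling of human reads, nothing was given in the sources used here.

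TPM was changed to log2(TPM + 1). The 15650 genes averaging 1 TPM or more entered a limma 3.58.1 fit under R 4.3.3 (lmFit; eBayes, its prior following mean intensity; two-sided; Benjamini-Hochberg over all genes tested; threshold 0.05), and the fit was tested on simulated data. Median-of-ratios factors came from tested genes above 0 in every sample. Members' levels were compared with an exact sign-flip permutation test. A set of 14 gene lists was used: T, B and natural killer cells, NSG strain genes, 2 endothelial lists, alveolar macrophages, monocytes, neutrophils, alveolar type 1 cells, airway cells, Gimap partners, immune GTPases and neighbours. Of the 10 genes listed as neighbours, Kcnh2 and Nos3 lie on mouse chromosome 5 and were left out after this was seen, which leaves 8. Members and lists were chosen with earlier results of these data known. Named genes followed a rule: all members, all partners, neighbours and strain genes, the 4 most abundant genes of each list, Cdh5, Pecam1, Cd3e and the 10 nearest profiles; of these, genes on which a sentence turns are named. Gm28053 and the marker genes Cd8b1, Trac, Trbc1, Trbc2, Cd79a and Ncr1, which define their cell types, were added to it. Promoter windows, motif shares and gene order came from RefSeq tables (GRCm38.p6), and shared stretches of 50 bases and coding identity (Biopython 1.88) from GENCODE M21, an earlier build than that of the matrix.

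The alternatives were pseudocounts of 0.1 and 5, an average of 5 TPM as the filter or none, scaling by median-of-ratios factors, the same with the length trend removed (lowess span 0.3), quantile normalization, TPM rescaled without Scgb1a1, no intensity trend, the replicate number as a block, and each sample left out on both scalings. Combining Gimap1, Gimap5 and Gm28053, and Gimap3 and Gimap5, was chosen after seeing the data.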

Additional observations from a re-analysis of the deposited data

How the results depend on the processing

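Of 135 values of the 6 members' log2 changes under the alternatives, 133 were below 0. The exceptions, both after median-of-ratios scaling, were Gimap1 without DPP3_KO replicate 2 (0.032) and Gimap5 without DPP3_KO replicate 1 (0.11). Nothing is read from that count, since the members were chosen on this difference and all values come from the same 6 libraries. The median over all genes was also below 0 in every fit, from -0.68 (pseudocount 0.1) to -0.001 (length trend removed). The members' median was -0.44 after median-of-ratios scaling, -0.44 after quantile normalization, -0.62 with the length trend also removed and -0.78 when rescaled without Scgb1a1. Against 5321 genes lower and 216 higher, median-of-ratios scaling gave 139 and 304, quantile normalization 140 and 327, removal of the length trend 91 and 211, rescaling without Scgb1a1 421 and 141, and no filter 3093 and 156. In the same order of settings, the members called lower were 1, 1, 1, 3 and 3 of 6, the T cell genes 1 in each, the capillary endothelial genes 4, 5, 1, 7 and 16, and the immune GTPases 0, 0, 0, 0 and 7. T cell genes also numbered 1 with a pseudocount of 0.1 and with a mean of at least 5 TPM. Leaving out each sample gave 85 to 5049 genes lower, 6 to 161 higher, 1 to 5 members, 0 to 2 T cell genes, 2 to 20 capillary endothelial genes and 0 to 15 immune GTPases; the fewest genes lower came without Ctrl replicate 2. On scaled values, leaving out Ctrl replicates 1, 2 and 3 and then DPP3_KO replicates 1, 2 and 3 gave 19, 49, 55, 175, 8 and 21 genes lower (139 with all), 34, 48, 104, 189, 21 and 68 higher (304 with all), and 0 members except 1, Gimap4, without DPP3_KO replicate 1. The cause of these shifts was not tested. The order of the members gave 0 of 7 pairs past the threshold under each alternative run, but only the pseudocount runs could have changed that. The smallest p of the exact permutation test was 0.0625 with 1 library left out and 0.25 within 1 group. Both lie above the threshold, so those runs say nothing about the order.

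With the replicate number as a block, 4734 genes were lower and 212 higher, and 5 of 6 members passed, all but Gimap5. The numbers do not pair the samples: correlations of same-numbered deviations across genes ran from -0.206 to 0.271, and 2 of 6 samples correlated best with their own number. Because TPM keeps no depth, no counting interval can be given for the low members Gimap3 and Gimap7.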
